A study of Mus musculus with 8 samples.

Results

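NF-κB is a family of dimeric transcription factors. The genes described here encode its DNA-binding subunits (Nfkb1, Nfkb2, Rel, Rela and Relb) and the IκB proteins Nfkbia, Nfkbie and Nfkbiz. They also encode the ubiquitin-editing inhibitor Tnfaip3 and the inhibitor Tnip1, which binds ubiquitin chains. Each gene was taken from the probe sets that carried its symbol and no other, using the brightest such probe set over the 8 arrays. Of the 10 genes, 9 were measured, each by 1 probe set, among 19938 genes in all, and Nfkb1 was not analysed here. None of the 9 lay among the dimmest 25% of genes.

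In resting cells IκB proteins hold NF-κB dimers in the cytoplasm. Inflammatory cytokines activate the IκB kinase complex, the IκB proteins are degraded, and the freed dimers enter the nucleus and switch on cytokine, chemokine and survival genes. Some of the targets encode inhibitors of the pathway, Nfkbia and Tnfaip3 among them, which closes a negative feedback loop. Glucocorticoids are known to lower the expression of many NF-κB target genes, and Nfkbia is known as a glucocorticoid-induced gene in lymphocytes.

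The RNA came from 3134 cells, a mouse mammary line that carries 2 integrated transgenes in every group: the tetracycline regulator tTa and A-fos, a dominant negative that blocks DNA binding by AP-1 and is switched by tetracycline (Tet-Off). The 4 groups of 2 arrays were the plus-tetracycline-titled arm after 4 h of 100 nM dexamethasone, the same arm at 0 h, the no-tetracycline-titled arm after 4 h of 100 nM dexamethasone, and that arm at 0 h, all after 48 h in charcoal-treated serum. Titles and treatment protocols state opposite tetracycline states (1 µg per ml) for all 8 samples. For the samples titled plus tetracycline, the protocols name 48 h without tetracycline. The arms are therefore called plus-titled and no-titled here, and the labels leave unresolved where A-fos was made. The labels do not say whether the line is 1 clone or whether the 2 arrays of a group came from separate cultures, so p-values measure the spread between these arrays, which may be technical.

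Hormone action was visible in both arms: Fkbp5, a co-chaperone of the glucocorticoid receptor, was 9.99-fold higher at 4 h in the plus-titled arm and 8.27-fold higher in the no-titled arm. Of 6 glucocorticoid-induced genes listed as a check, Fkbp5 among them, limma called 5 higher in each arm. Over all genes 0.823% were called higher in the plus-titled arm and 1.03% in the no-titled arm. Replicates correlated at 0.993 to 0.996 across genes, and the 2 untreated plus-titled arrays were the least alike, with 24 genes over 2-fold apart. The median of all probe sets on replicate 1 of the untreated plus-titled group lay 0.08 (log2) below that of the next lowest array, while the other 7 arrays spanned 0.03. Of 9 epithelial markers 6, Epcam (4.06 to 4.58, log2) and Cdh1 (4.83 to 5.19) among them, lay below the median of their array on all 8 arrays. Krt8 (5.56 to 6.06) lay above it on all 8, and Krt14 (4.83 to 6.76) and Cldn4 (5.24 to 5.53) on 4. The mesenchymal marker Vim lay at 12.61 to 12.99. Of 7 leukocyte markers, 4 were among the dimmest 25% of genes and 0 were called in any comparison (limma adjusted p under 0.05). In RNA from whole cultures, fewer cells of a type and less RNA per cell cannot be told apart.

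RefSeq promoters (build GRCm38.p6) were found for 7 of the 10 genes (not Nfkb1, Relb or Nfkbiz), over 10 annotated transcript starts, and the 250 bases before each start were searched on both strands. The NF-κB consensus was matched for 6 of the 7 genes, all but Rela, against 8.23% of 27025 genes, and in 7.25% of all 32851 windows of that length. These windows are a description of letters, not of bound sites. The AP-1 motif, searched as TGANTCA with any middle base, was matched for 3 of the 7 (Nfkb2, Nfkbie and Tnfaip3), against 7.82% of genes. The matches were TGAATCA at the second start of Nfkb2, TGAGTCA in Nfkbie and TGACTCA in Tnfaip3. The glucocorticoid response element (GNACA and TGTNC with 3 bases between them) was matched for 0 of the 7, against 0.44% of genes. The TATA box TATAAA was matched for 1 of the 7, Tnfaip3, against 14.3% of genes. That match lay far from the start, 225 to 220 bases before the first annotated start of Tnfaip3.

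The windows of 4 genes are shown because their levels carried the clearest differences with hormone (Nfkbia and Nfkb2) and between the arms (Nfkbie and Tnip1). They are written 5′ to 3′ on the gene's strand, with matches to the NF-κB consensus and to TGANTCA in capitals; overlapping matches run together.
Nfkbia, chr12:55492648-55492897, - strand: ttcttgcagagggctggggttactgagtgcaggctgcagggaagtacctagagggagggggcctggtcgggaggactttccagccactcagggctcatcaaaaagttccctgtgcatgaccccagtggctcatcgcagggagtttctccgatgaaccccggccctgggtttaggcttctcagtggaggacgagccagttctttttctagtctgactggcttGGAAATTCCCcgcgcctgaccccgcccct
Nfkb2, chr19:46304487-46304736, + strand: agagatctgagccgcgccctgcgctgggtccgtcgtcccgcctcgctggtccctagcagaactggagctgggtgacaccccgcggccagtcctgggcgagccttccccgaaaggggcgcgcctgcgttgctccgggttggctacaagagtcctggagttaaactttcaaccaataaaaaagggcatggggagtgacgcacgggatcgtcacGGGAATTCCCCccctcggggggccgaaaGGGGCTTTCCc
Nfkbie, chr17:45555450-45555699, + strand: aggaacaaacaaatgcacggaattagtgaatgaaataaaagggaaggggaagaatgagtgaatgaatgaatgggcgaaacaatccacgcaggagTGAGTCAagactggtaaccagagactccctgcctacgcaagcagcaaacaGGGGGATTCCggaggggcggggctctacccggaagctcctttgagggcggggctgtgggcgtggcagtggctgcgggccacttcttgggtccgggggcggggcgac
Tnip1, chr11:54962941-54963190, - strand: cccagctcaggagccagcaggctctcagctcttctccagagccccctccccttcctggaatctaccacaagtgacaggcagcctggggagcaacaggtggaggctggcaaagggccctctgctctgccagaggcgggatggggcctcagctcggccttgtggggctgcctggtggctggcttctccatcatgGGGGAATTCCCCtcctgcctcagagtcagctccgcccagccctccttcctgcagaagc

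In the Nfkbia window the match GGAAATTCCC ended 20 bases before the start. Nfkb2 held GGGAATTCCC and GGGGCTTTCC within 39 bases of its first annotated start, and its other 2 starts held 1 NF-κB match each. Nfkbie carried GGGGGATTCC and, farther upstream, the AP-1 match TGAGTCA. In Tnip1 a run of overlapping matches lay 58 to 47 bases before the start. Among genes not printed, Rel held GGGAAATCCC, and the first start of Tnfaip3 held GGGACACCCC, GGAAATCCCC and the AP-1 match TGACTCA.

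**Figure D1:**
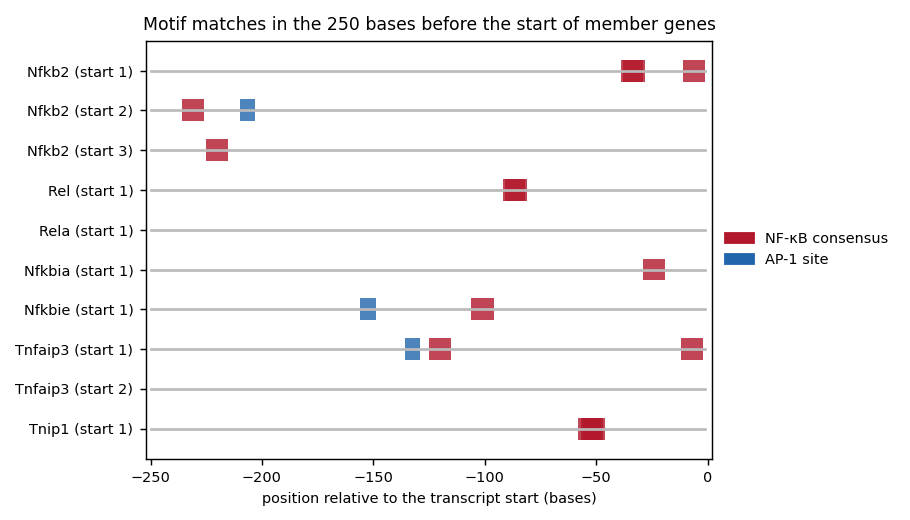
Positions of motif matches in the 250 bases before each annotated start of the 7 genes with a promoter sequence; the x axis is the distance from the start in bases, red boxes are NF-κB consensus matches and blue boxes are AP-1 matches. All windows except that of Rela and the second start of Tnfaip3 hold a red box.

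After 4 h of dexamethasone the inhibitor gene Nfkbia rose and the subunit genes Nfkb2, Rel and Relb fell, while Rela, the main activating subunit, did not pass the test. Nfkbie fell and Tnfaip3 rose. These statements rest on the mean of the hormone responses in the 2 arms, for which limma called 6 of the 9 genes (2 higher and 4 lower), with 2.96% of all genes called (1.73% higher and 1.23% lower). Of these 6 calls, only that of Nfkbia was kept in every fit that left out 1 array. Taken arm by arm, Nfkbia was the 1 gene called of 9 in each, with 1.1% of all genes called for the plus-titled arm (0.823% rising, 0.281% falling) and 1.43% for the no-titled arm (1.03% rising, 0.401% falling). For the mean response the median difference of the 9 genes was -0.18, against 0.00 for all genes.

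Nfkbia encodes IκBα, the classical cytoplasmic inhibitor. Its signal was 8.55 and 8.58 (log2) at 4 h against 7.50 and 7.30 at 0 h in the plus-titled arm, and 8.41 and 8.41 at 4 h against 6.97 and 7.14 at 0 h in the no-titled arm. Both treated arrays lay above both untreated arrays in each arm, by a gap several times the replicate spread. The rise was 1.16 ± 0.12 (log2, SE) or 2.23-fold in the plus-titled arm (limma adjusted p = 0.000502) and 1.35 ± 0.12 or 2.55-fold in the no-titled arm (adjusted p = 0.000105). Averaged over the arms it was 2.39-fold (95% interval 2.11 to 2.71, adjusted p = 9.17e-06), and the call was kept in all 8 fits that left out 1 array.

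Nfkb2 encodes the precursor of the p52 subunit, which also acts as an inhibitor before it is processed. It read 7.82 and 7.54 at 4 h against 8.34 and 8.29 at 0 h in the plus-titled arm, and 7.39 and 7.26 at 4 h against 7.91 and 7.64 at 0 h in the no-titled arm. Treated arrays were below untreated ones in both arms without overlap. The differences were -0.63 (adjusted p = 0.0596) and -0.45 (adjusted p = 0.209), neither of which passed, and their mean was -0.54 ± 0.10 (SE, adjusted p = 0.0101), or 1.45-fold lower.

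Rel encodes c-Rel, the subunit best known from lymphocytes. Its values were 6.35 and 6.40 at 4 h against 6.80 and 6.65 at 0 h in the plus-titled arm, and 6.31 and 6.39 at 4 h against 6.73 and 6.75 at 0 h in the no-titled arm. All 4 treated arrays lay below all 4 untreated ones, whichever the arm. The differences were -0.35 in the plus-titled arm (adjusted p = 0.241) and -0.40 in the no-titled arm (adjusted p = 0.146), and their mean was -0.37 ± 0.08 (SE, adjusted p = 0.024).

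Relb, which pairs with p52 in the non-canonical pathway, read 6.41 and 6.33 at 4 h against 6.81 and 6.85 at 0 h in the plus-titled arm, and 6.01 and 6.18 at 4 h against 6.33 and 6.35 at 0 h in the no-titled arm. Groups were apart in each arm, by -0.46 in the plus-titled arm (adjusted p = 0.0967) and -0.24 in the no-titled arm (adjusted p = 0.536), with a mean response of -0.35 ± 0.08 (SE, adjusted p = 0.0347). Rela encodes the p65 subunit and read 7.35 and 7.16 at 4 h against 7.38 and 7.42 at 0 h in the plus-titled arm, and 7.38 and 7.37 at 4 h against 7.46 and 7.29 at 0 h in the no-titled arm. Its mean response was -0.07 (95% interval -0.25 to 0.11, adjusted p = 0.82). That interval overlaps those of Rel and Relb and lies above that of Nfkb2 (-0.75 to -0.33), but the difference between Rela and these genes was not tested.

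Among the other IκB genes, Nfkbie, whose product IκBε also retains dimers in the cytoplasm, fell. It read 6.42 and 6.53 at 4 h against 6.77 and 7.24 at 0 h in the plus-titled arm, and 5.78 and 5.59 at 4 h against 6.09 and 6.17 at 0 h in the no-titled arm. The untreated plus-titled arrays differed by 0.46, the largest gap between replicates among the 9 genes. The response was -0.53 in the plus-titled arm (adjusted p = 0.189) and -0.44 in the no-titled arm (adjusted p = 0.306). The mean response was -0.49 ± 0.11 (SE, adjusted p = 0.0351), opposite in sign to that of Nfkbia. Nfkbiz encodes the atypical nuclear IκBζ, a coactivator of secondary response genes, and read 5.92 and 5.94 at 4 h against 5.92 and 5.91 at 0 h in the plus-titled arm, and 6.30 and 6.48 at 4 h against 6.27 and 6.06 at 0 h in the no-titled arm. Its mean response of 0.12 did not pass (adjusted p = 0.657).

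Tnfaip3 encodes a ubiquitin-editing enzyme that ends signalling upstream of the IκB kinases. Its signal was 6.89 and 6.63 at 4 h against 6.36 and 6.26 at 0 h in the plus-titled arm, and 6.35 and 6.28 at 4 h against 5.97 and 5.70 at 0 h in the no-titled arm. Treated arrays were higher by 0.45 in the plus-titled arm (adjusted p = 0.204) and 0.48 in the no-titled arm (adjusted p = 0.16), with a mean response of 0.47 ± 0.09 (SE), or 1.38-fold (adjusted p = 0.0223). Tnip1, whose product binds ubiquitin chains and works with the Tnfaip3 enzyme, read 7.10 and 7.07 at 4 h against 7.31 and 7.40 at 0 h in the plus-titled arm, and 6.66 and 6.36 at 4 h against 6.71 and 6.49 at 0 h in the no-titled arm. Its mean response was -0.18 (adjusted p = 0.494) and did not pass.

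Among the 9 genes, treated and untreated arrays of the plus-titled arm did not overlap for 8, of which 2 were higher and 6 lower. With 2 arrays a group, 36.1% of all genes are separated that way there (16.9% higher and 19.3% lower). In the no-titled arm 7 were separated, 3 of them higher and 4 lower, against 40.5% of all genes (21.1% higher and 19.4% lower). The smaller responses lost their calls with 1 array fewer, and the whole table then had 331 to 527 calls against 590. Apart from Nfkbia, 0 to 2 of the genes were still called for the mean response when 1 array was left out, so that 1 to 3 were called in all. Of the 8 such fits, 4 no longer called Nfkb2 (limma adjusted p at most 0.0558). The call was missed for Tnfaip3 in 6 (up to 0.108), Rel in 7 (up to 0.107), Nfkbie in 7 (up to 0.135) and Relb in 8 (up to 0.154). Rel was still called only without replicate 2 of the untreated plus-titled group, Nfkbie only without replicate 1 of that group, and Tnfaip3 only without replicate 1 of the untreated no-titled group or replicate 2 of the treated plus-titled group. Nfkb2 was lost without replicate 1 of either untreated group and without replicate 2 of either treated group. Each of the 5 genes kept its sign in all 8, and the mean responses there ranged from -0.61 to -0.47 for Nfkb2 and from 0.40 to 0.53 for Tnfaip3. Of 9 epithelial, 5 mesenchymal, 7 leukocyte and 3 endothelial markers, 1 was called for the mean response, the mesenchymal gene Pdgfrb (-0.63, adjusted p = 0.00287). Over all genes 2.96% were called for it. The summed mesenchymal level was 10438 and 10152 at 4 h against 10346 and 10899 at 0 h in the plus-titled arm, and 13430 and 13040 at 4 h against 13957 and 13674 at 0 h in the no-titled arm. In the no-titled arm 4 of the 5 mesenchymal markers were lower at 4 h without overlap, 0 of them called. The summed epithelial level was 303 and 280 at 4 h against 281 and 275 at 0 h in the plus-titled arm, and 364 and 364 at 4 h against 385 and 356 at 0 h in the no-titled arm. The summed leukocyte level was 158 and 140 at 4 h against 141 and 147 at 0 h in the plus-titled arm, and 160 and 161 at 4 h against 161 and 152 at 0 h in the no-titled arm. Their part in the hormone responses was not tested.

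**Figure D2:**
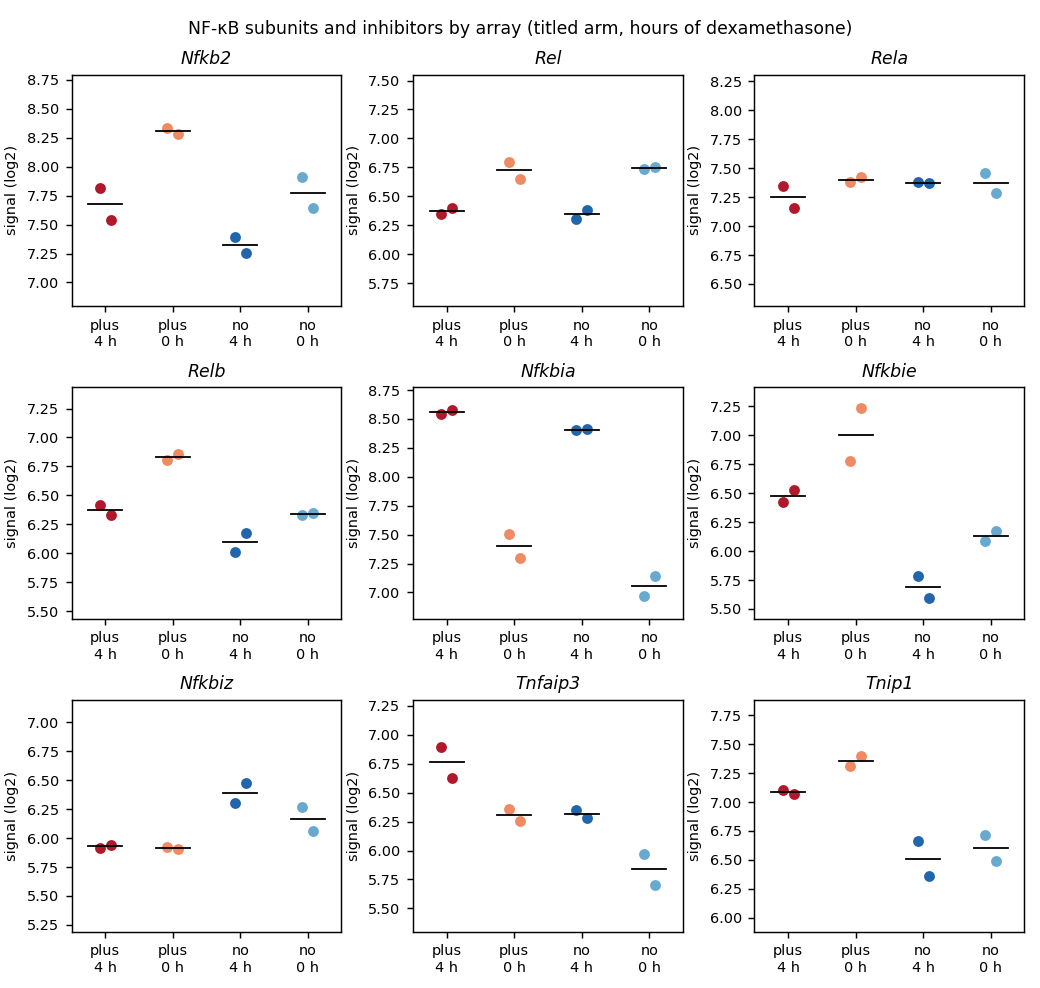
Signal (log2, y axis, each panel spanning the same range) of the 9 measured genes on the 8 arrays, by titled arm and hours of dexamethasone; points are arrays and lines are group means (n = 2). Nfkbia is higher at 4 h in both arms, Nfkb2, Rel, Relb and Nfkbie are lower, and Nfkbie and Tnip1 are higher in the plus-titled arm at both times.

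**Figure D3:**
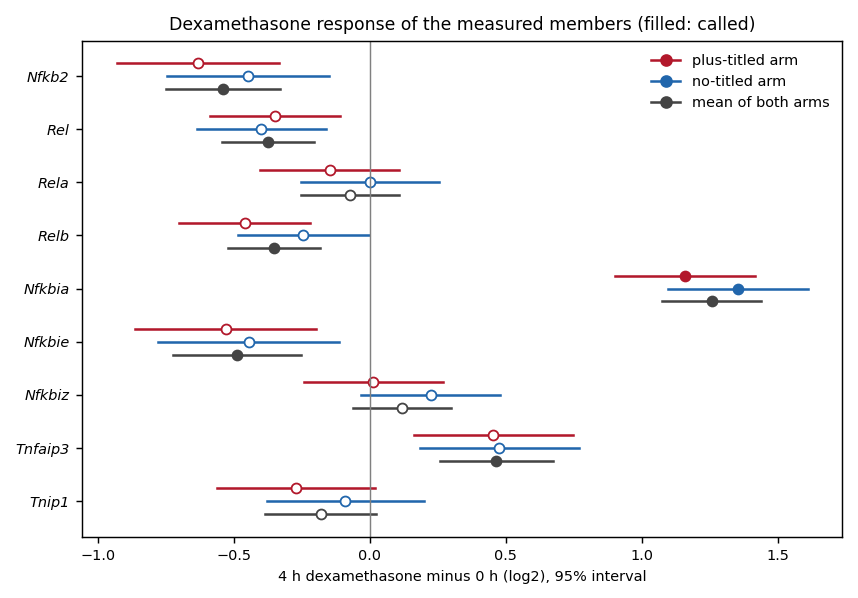
Difference between 4 h of dexamethasone and 0 h (log2, x axis) with its 95% interval from limma, for each gene in the plus-titled arm, in the no-titled arm and averaged over both; filled points have an adjusted p under 0.05. The Nfkbia intervals stand apart at 0.90 to 1.61 in the single arms, and those of the other genes lie between -0.93 and 0.77.

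The size of the hormone response was then compared between the arms. The difference of the responses (plus-titled minus no-titled) was called for 0 of the 9 genes by limma, and 0 had an unadjusted p under 0.05, with 0.00502% of all genes called. For Nfkbia the difference was -0.19 (95% interval -0.56 to 0.17), for Relb -0.22 (-0.56 to 0.12) and for Nfkb2 -0.18 (-0.60 to 0.24). The intervals of all 9 genes included 0 and lay between -0.60 and 0.39, with half-widths of 0.34 to 0.47, so values in those ranges are not excluded.

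Between the arms, the inhibitors Nfkbie and Tnip1 were higher in the plus-titled arm with and without hormone. Nfkb2, Relb and Tnfaip3 were higher there at 0 h and in the mean over both times, and Nfkbiz was lower at 4 h and in that mean. Every call at a single time was lost in at least 1 fit that left out 1 array, with its sign kept. In those fits the 0 h difference ranged from 0.40 to 0.67 for Nfkb2 and from 0.47 to 0.52 for Relb. The 4 h difference of Nfkbiz ranged from -0.55 to -0.38. Averaged over both times, limma called 6 of the 9 genes (5 higher and 1 lower), with 18.8% of all genes called (11% higher and 7.74% lower). At 4 h it called 3 (2 higher and 1 lower) and at 0 h 5, all higher, with 9.61% of all genes called at 4 h (5.29% higher and 4.32% lower) and 9.38% at 0 h (6.2% higher and 3.18% lower). These comparisons use the same arrays as the hormone responses and are not independent of them.

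Nfkbie had the largest difference. At 4 h its values were 6.42 and 6.53 in the plus-titled arm against 5.78 and 5.59 in the no-titled arm, and at 0 h 6.77 and 7.24 against 6.09 and 6.17. All 4 plus-titled arrays lay above all 4 no-titled arrays. The mean difference was 0.83 ± 0.11 (log2, SE; adjusted p = 0.000393), or 1.78-fold. It was 0.79 at 4 h (adjusted p = 0.00877) and 0.87 at 0 h (adjusted p = 0.00562).

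Tnip1 was 1.58-fold higher in the plus-titled arm over both times (0.66 ± 0.09, SE; adjusted p = 0.00065), with no overlap of the arms at 4 h (0.57, adjusted p = 0.0204) or 0 h (0.75, adjusted p = 0.00581). Relb was higher by 0.39 ± 0.08 (adjusted p = 0.00526) and Nfkb2 by 0.45 ± 0.10 (adjusted p = 0.00755). At 4 h Relb differed by 0.28 (adjusted p = 0.157) and at 0 h by 0.49 (adjusted p = 0.0184). Nfkb2 differed by 0.35 at 4 h (adjusted p = 0.144) and by 0.54 at 0 h (adjusted p = 0.0324). Tnfaip3 was higher by 0.46 ± 0.09 (adjusted p = 0.00578), and its treated no-titled arrays, at 6.35 and 6.28, overlapped its untreated plus-titled arrays, at 6.36 and 6.26. Tnfaip3 differed by 0.45 at 4 h (adjusted p = 0.06) and by 0.47 at 0 h (adjusted p = 0.0497). The 0 h call was lost in 6 of 8 fits without 1 array (adjusted p up to 0.317), being kept only without either treated plus-titled array. Nfkbiz was the 1 gene called lower in the plus-titled arm, by -0.36 ± 0.08 (adjusted p = 0.011), with 5.91 to 5.94 on the plus-titled arrays and 6.06 to 6.48 on the no-titled ones. Its difference was -0.46 at 4 h (adjusted p = 0.0302) and -0.25 at 0 h (adjusted p = 0.228).

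Averaged over both times, Rela, Rel and Nfkbia differed least between the arms. Nfkbia differed by 0.15 at 4 h (limma adjusted p = 0.515) and by 0.35 at 0 h (adjusted p = 0.0968). Rela had a mean difference of -0.05 (95% interval -0.23 to 0.13) and Rel one of 0.00 (-0.16 to 0.17). Nfkbia was 0.25 higher (0.07 to 0.43, adjusted p = 0.0602), which did not pass, and it did without replicate 2 of the untreated plus-titled group (0.30, adjusted p = 0.0335), with trend and robust variance (0.25, adjusted p = 0.0259), without the dimmest 25% of genes (0.25, adjusted p = 0.0366) and with median centring (0.29, adjusted p = 0.0452).

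At 4 h the arms did not overlap for 8 of the 9 genes (6 higher and 2 lower), against 51.7% of all genes (24.4% higher and 27.2% lower). At 0 h they did not overlap for 7 (6 higher and 1 lower), against 49.8% of all genes (25% higher and 24.9% lower). For the mean over both times, Nfkbie, Tnip1, Nfkb2, Relb and Tnfaip3 were called in all 8 fits without 1 array (adjusted p up to 0.0368). Nfkbiz was lost without replicate 1 of the untreated no-titled group (-0.31, adjusted p = 0.0568) and without replicate 2 of the treated no-titled group (-0.31, adjusted p = 0.0505). At a single time, leaving out 1 array gave 0 to 3 called genes at 4 h and 1 to 5 at 0 h. Without replicate 2 of the treated no-titled group, or replicate 2 of the treated plus-titled group, the 4 h count was 0, and it was 1 when the treated plus-titled group lacked its replicate 1. The 0 h count was 1 without either untreated no-titled array, 2 without replicate 2 of the untreated plus-titled group and 3 without its replicate 1. Some markers differed between the arms too. Of 9 epithelial markers 1, Krt14, was called lower in the plus-titled arm (-1.40, adjusted p = 3.38e-05). Over all genes 18.8% were called for that mean (11% higher and 7.74% lower). The summed epithelial level was 275 to 303 on plus-titled arrays and 356 to 385 on no-titled arrays (linear signal). Krt14 is part of that sum, so the sum is not a separate observation. The summed level of 5 mesenchymal markers was 10152 to 10899 on plus-titled arrays and 13040 to 13957 on no-titled arrays. Of these 5, Col1a2 (-0.68, adjusted p = 0.000224) and Vim (-0.30, adjusted p = 0.0146) were lower and Pdgfrb (0.41, adjusted p = 0.00909) was higher. They are part of the mesenchymal sum, so that sum is not a separate observation either. The summed leukocyte level was 140 to 158 on plus-titled arrays and 152 to 161 on no-titled arrays. Their part in the differences of the NF-κB genes was not tested.

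**Figure D4:**
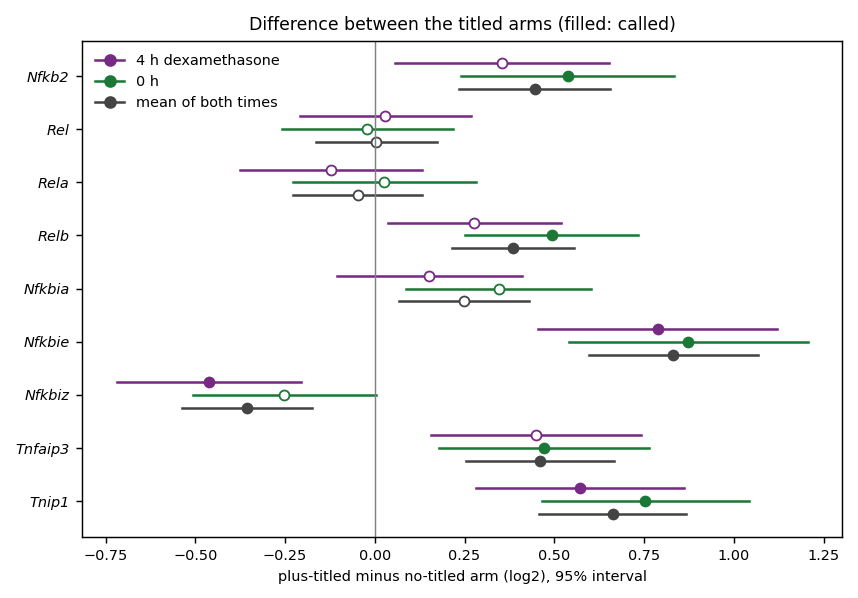
Difference between the plus-titled and the no-titled arm (log2, x axis) with its 95% interval from limma, for each gene at 4 h, at 0 h and averaged over both; filled points have an adjusted p under 0.05. Nfkbie and Tnip1 are filled in all 3 comparisons on the right of 0 and Nfkbiz is filled on the left at 4 h and in the mean, while Rel and Rela lie across 0.

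The rest of the pathway was read from lists of other IκB proteins, IκB kinases, receptors with their adaptors, ubiquitin-related genes and NF-κB target genes. For the mean response, 0 of 4 other IκB genes, 0 of 5 kinase genes and 0 of 21 receptor and adaptor genes passed, and of 12 ubiquitin-related genes 1 fell, Cyld, a deubiquitinase that restrains the pathway (-0.42 ± 0.08, SE, adjusted p = 0.0219), a call lost in 6 of 8 fits without 1 array (adjusted p up to 0.113). Over all genes 2.96% were called (1.73% higher and 1.23% lower), and 0 calls in lists of 4 to 21 genes lie near that share. The smallest p of the first 3 lists belonged to Nfkbid (-0.05, adjusted p = 0.891), Map3k14, the kinase of the non-canonical pathway (-0.21, adjusted p = 0.355), and the tumour necrosis factor receptor gene Tnfrsf1b (-0.35, adjusted p = 0.0547).

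Of 29 measured target genes 2 rose and 5 fell for the mean response, with a median of -0.07, against 1.73% and 1.23% of all genes and a median of 0.00. The chemokine genes Ccl2 (-0.82, adjusted p = 0.00133) and Cxcl5 (-0.79, adjusted p = 0.00133) fell, as did Ptgs2, Irf1 and Csf1. Bcl2l1, which encodes the survival protein Bcl-xL, rose by 1.93 ± 0.08 (SE, adjusted p = 2.86e-07), or 3.81-fold, and Gadd45b rose by 0.55. Of these, Csf1 (-0.49, adjusted p = 0.0287) was lost in 5 of 8 fits without 1 array (adjusted p up to 0.131), and the other 6 were kept in all 8. With its dimmer probe set in place of the brighter one, Irf1 read -0.18 (adjusted p = 0.579) against -0.72. The Bcl2l1 rise was 1.59 in the plus-titled arm and 2.27 in the no-titled arm; they differed by -0.68, short of the threshold (adjusted p = 0.567).

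Between the arms, averaged over both times, Il1rap, the accessory chain of the interleukin-1 receptor, was 2.37-fold higher in the plus-titled arm (log2 1.25 ± 0.08, SE, adjusted p = 7.17e-06). Ikbkg, the regulatory subunit of the IκB kinase complex, was lower by -0.84 ± 0.08 (adjusted p = 7.21e-05), and Irak1, an interleukin-1 receptor kinase, by -0.58 (adjusted p = 0.000723). Nfkbib, which encodes IκBβ, was higher by 0.55 (adjusted p = 0.00139). All 4 calls were kept in the 8 fits without 1 array. With their dimmer probe sets, the target gene Irf1 and the ubiquitin list gene Tnfaip8, both called higher, read -0.12 and -0.10 and did not pass. In all, 1 of 4 other IκB genes was higher, 1 of 5 kinase genes lower, 3 of 21 receptor and adaptor genes higher and 1 lower, 4 of 12 ubiquitin-related genes higher, and of 29 target genes 4 higher and 3 lower, with 18.8% of all genes called. The 4 were Itch and Rnf11, which encode ubiquitin ligases, the ubiquitin-binding adaptor gene Tax1bp1, and Tnfaip8, which encodes no ubiquitin enzyme. Of all these calls, 7 were lost in at least 1 fit without 1 array (adjusted p up to 0.153). The median difference of the target genes was 0.00 and that of the 9 subunit and inhibitor genes 0.39, against -0.02 for all genes.

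**Figure D5:**
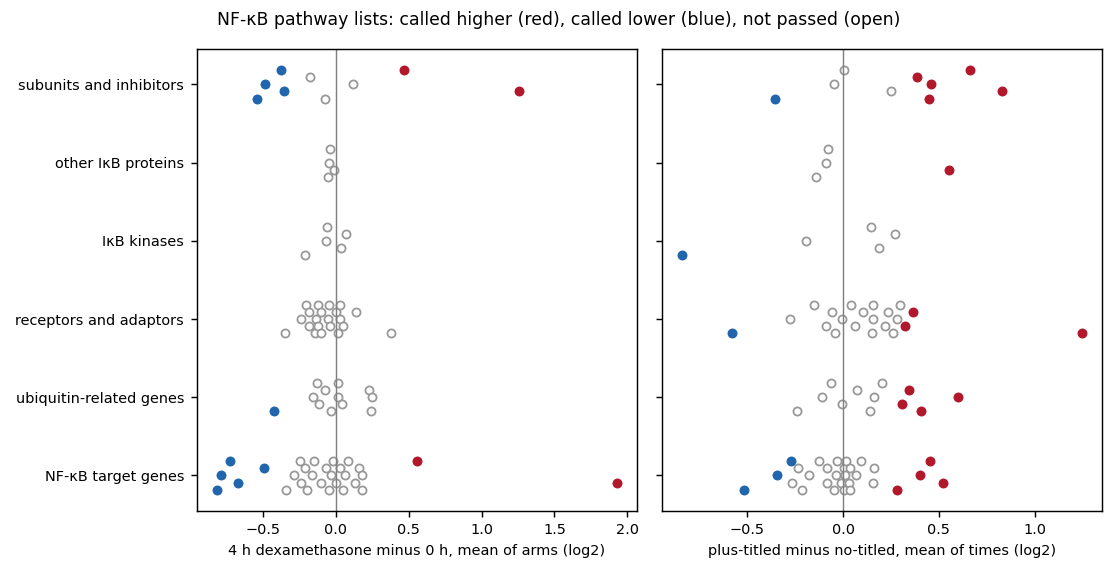
Mean hormone response (left, 4 h of dexamethasone minus 0 h) and mean arm difference (right, plus-titled minus no-titled), both log2 on the x axis, for every measured gene of 6 pathway lists; each point is a gene, red and blue are called higher and lower by limma, and open grey did not pass. In the hormone panel the coloured points sit among the subunits and inhibitors and the target genes, with 1 more among the ubiquitin-related genes.

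Genes whose pattern over the 8 arrays was most like that of a called member were found by the root mean square difference of their centred log2 values. For Nfkbia these were Zfp36 (0.0955, Pearson r = 0.990), Foxo3 (0.128) and Fam117b (0.154). Zfp36 encodes an RNA-binding protein that destabilises cytokine messages. For Nfkb2 they were Pdgfrb (0.0747, r = 0.983), Pik3cb and Tgfb1, and for Relb they were Smad3 (0.0383, r = 0.990), Thbd and Ap3m2. The nearest for Nfkbie was Ttc39b (0.142), for Tnip1 Plxna3 (0.0566), for Tnfaip3 Furin (0.0954) and for Nfkbiz Eif6 (0.0514). The 8 points of each r fall into the 4 groups, so they are not independent. Each gene was also chosen from 19938 for its likeness on these same arrays, so a high r comes with the choice.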

How the data were processed

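The 8 arrays, hybridised with RNA of 4 groups of 2, were grouped by sample title. The deposited values are log2 signals for 28888 probe sets, made by the authors with Affymetrix Expression Console and RMA, per the submitters' processing notes. The version of either was not given in the sources used here. Before it summarises probe sets, RMA equalises probe intensities, which removes much of any shift common to most genes and understates differences of dim genes; medians of the deposited values still differed a little between arrays. The number of arrays limits the precision.

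Symbols came from the platform annotation, updated by gene number in a RefSeq table: 21789 probe sets had 1 symbol, 1621 several and 5478 none in the table used. The brightest probe set stood for each of 19938 genes. The test was limma 3.58.1, run in R 4.3.3 (lmFit and eBayes, 2-sided, 4 group means, 4 residual and 6.64 prior degrees of freedom), with Benjamini-Hochberg adjustment over all genes and calls at an adjusted p under 0.05. Every adjusted p in the text is from limma. The script was tested on simulated data. Alternatives were each array left out in turn, fits on the arrays compared alone, other rules for the probe set, cyclic loess, centring on medians, trend and robust variance, removal of dim genes, and a replicate block.

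Named genes were all members; per comparison, at most 3 called genes of each other pathway list by size of change (if none was called, the gene of lowest p); and the 3 genes most like each member called in a single response or single arm difference. Fkbp5, from a list of 6 glucocorticoid-induced genes, checked hormone action, and markers were given as counts with examples. Csf1, Gadd45b and Rnf11 fall outside the rule and were named after their values were seen. Members and lists were chosen with earlier results of these data known. Of 118 list genes, 110 were matched. Promoters are RefSeq sequences; the NF-κB consensus is its standard degenerate decamer.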

Additional observations from a re-analysis of the deposited data

How the results depend on the processing

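Among the 9 genes, the rise of Nfkbia was called under every alternative run in each arm and in the mean (log2 1.06 to 1.44 in the single arms without 1 array), and no difference of the responses was called in any. In the plus-titled response the number called was 2, Nfkb2 being added, with trend and robust variance, with the replicate block, without the dimmest 25% of genes and with median centring, against 1 in the reported fit. Without 1 array, 1 to 3 genes were called for the mean response, 1 to 5 for the arms at 0 h and 0 to 3 at 4 h; these fits have fewer samples, and over the whole table they called 331 to 527 genes for the mean response against 590, 589 to 1642 at 0 h against 1870, and 654 to 2128 at 4 h against 1916. They called 134 to 291 against 285 in the no-titled response, 80 to 187 against 220 in the plus-titled response and 0 to 2 against 1 for the difference of responses. Trend and robust variance called 461 and 370 in those 2 responses and 11 for the difference. Titles share replicate numbers, but nothing says that a number marks a shared culture, and deviations of same-numbered arrays correlated at -0.02 to 0.13 across genes. The replicate block called 598 genes for the mean response and 222 in the plus-titled arm, and among the 9 genes it also added Tnfaip3 at 4 h between the arms, as did trend and robust variance and the filter on dim genes. At 0 h Tnfaip3 was lost with cyclic loess (adjusted p = 0.0527) and with only the 4 arrays compared (0.0732). Nfkbia was added there with trend and robust variance (0.0438). With the lowest probe set of each gene Tnfaip3 was also lost at 0 h (0.0525). Tnfaip3 has 1 probe set, so its difference stayed at 0.47 (log2). Only the variance estimate and adjustment shared with other genes moved in that fit. With the dimmest probe set of a gene, Irf1 turned to -0.10 at 0 h and -0.12 in the mean arm difference, and Tnfaip8 to -0.14 at 4 h, -0.054 at 0 h and -0.10 in the mean; their probe sets disagree and the cause was not tested. Of 981 values of the 9 genes under alternatives, 908 kept their side of the threshold, 61 lost a call and 12 gained one. Each of the 9 genes has 1 probe set, so other rules for the probe set could not change their differences. Leaving out an array outside a single comparison could not change them either. Those values are counted in the 981, so the share kept is not a measure of robustness.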
